A study of Homo sapiens with 12 samples.

Results

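Knockdown of RBM17, a splicing factor, was compared with a control siRNA in HEK293 cells, a human line of embryonic kidney origin. The comparison takes 6 of the 12 libraries of the series: the 3 labelled with an RBM17 siRNA and the 3 labelled with a control siRNA, chosen by their labels alone. The other 6 libraries come from knockdowns of U2SURP and CHERP, 3 each, and are used here to show where the RBM17 knockdown differs. Every group was grown alike, at passage 10 in DMEM with serum; HEK293 is the labelled source and HEK293T, a derivative with SV40 large T antigen, the labelled line. The RBM17 siRNA is a SMARTpool ON-TARGETplus pool, whereas the control is ON-TARGET plus Non-targeting siRNA #3 with no pool named, so pooling cannot be told apart from the target. The library numbers are consecutive within each group, and no label names a batch. Knockdown and any batch that follows these numbers cannot be told apart. The labels do not state that the 3 libraries per group are separate cultures, and the p-values cover only the spread among libraries, possibly technical.

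RBM17, also called SPF45, carries a G-patch and a U2AF homology motif (UHM), a fold that binds short tryptophan-containing ligand motifs in partners such as SF3B1 and U2AF2. The U2 small nuclear ribonucleoprotein (snRNP) recognises the branch site near the end of an intron, and the U1 snRNP recognises the start of the intron. RBM17 is known to act where the 3' end of an intron is chosen, and U2SURP and CHERP are found with it in U2-containing complexes.

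The 6 libraries held between 252505520 and 306330362 gene counts. Levels are given as counts per 1000000 counts (CPM) after scaling by library, one value per library. Changes, also where a bare value follows a gene, are log2 fold changes ± SE of knockdown over control, with adjusted p from edgeR's quasi-likelihood test. Of the HEK293 marker genes 7 of 10 rose, and their summed level was 860.2 to 969 CPM in the knockdown against 719.9 to 793 CPM in control. Summed markers of other cells were lower in the knockdown: 108 to 114 against 149.5 to 158 CPM for fibroblasts, 2.76 to 2.85 against 4.46 to 5.55 for blood, 10.2 to 11.4 against 12.7 to 13.7 for epithelium, and 2.51 to 3.04 against 3.77 to 4.05 for endothelium. Of their tested members 4 of 8, 3 of 7, 4 of 7 and 3 of 6 fell, and 1 endothelial marker rose. Over all genes tested 25.4% rose and 29.3% fell. The median member stood at 0.273, 0.16, 0.252 and 0.296 CPM in these lists, near the floor. A few genes therefore carried the fibroblast sum, and the sums do not measure how many such cells were present. The part of these markers in the results was not tested. Knockdown library 1 and control library 3 differed most from the others of their group, and without both knockdown library 2 and control library 3, which had the fewest genes detected in their groups, 14322 genes were called. In bulk RNA, fewer cells of a kind and less RNA per cell cannot be told apart.

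RBM17 (ENSG00000134453; GRCh38 chromosome 10, 6088987 to 6117457, plus strand) stood at 112, 116 and 118 CPM in the control libraries and at 26.6, 25.97 and 27.0 CPM in the knockdown libraries. The groups did not overlap, and the level was 23.03% of control (-2.12 ± 0.049, adjusted p = 1.37e-19). In the U2SURP and CHERP knockdowns RBM17 averaged 122 and 123 CPM. Its partners stayed closer to control: U2SURP differed by 0.12 ± 0.06, adjusted p = 0.0952, which did not pass with the scaling used here but did with DESeq2 size factors, and CHERP rose by 0.26 ± 0.051 (adjusted p = 1.10e-04). Over 29003 genes tested, 15858 (54.7%) were called at an adjusted p under 0.05, 7368 higher (25.4%) and 8490 lower (29.3%). With DESeq2 size factors the split was 8112 higher and 7566 lower. Large changes were mostly decreases: 645 genes (2.22%) rose and 2759 (9.51%) fell by at least 2-fold. Among protein-coding genes 38.7% rose and 27.2% fell. The share that rose went with level. At 20 to 100 CPM 52.8% of protein-coding genes rose and 22.6% fell, and at 100 CPM or more 55.7% rose and 22.5% fell. Groups of abundant genes are better set beside these shares than beside that of all genes. Libraries of the groups did not overlap, with every knockdown library higher, for 27.0% of genes and, with every one lower, for 32.3%. With so many genes called, the counts per group of genes are read against these shares.

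Most proteins of the U2 snRNP were higher. Of 13 members, 11 rose and 2 fell, with a median log2 change of 0.43 beside -0.10 over all genes and 0.06 over protein-coding genes. SNRPA1, which binds the U2 RNA together with SNRPB2, gave 108, 108 and 116 CPM in control and 173, 178 and 186 CPM in the knockdown. Every knockdown library lay above every control library (0.69 ± 0.049, adjusted p = 5.09e-11). SF3A3, of the SF3A heterotrimer, rose by 0.66 ± 0.057 (adjusted p = 8.58e-10), and SF3B2 by 0.64 ± 0.055 (adjusted p = 9.34e-10). SF3B1, the largest SF3B subunit and a ligand of the RBM17 UHM, rose least of the 11 (0.17 ± 0.052, adjusted p = 0.00771), and was not called when genes under 1 CPM were left out. The exceptions were DDX46, the helicase PRP5, which fell from 197, 197 and 199 to 134, 142 and 139 CPM (-0.51 ± 0.047), and SF3A2 (-0.16 ± 0.058, adjusted p = 0.0186), which was not called with DESeq2 size factors. Compared directly with the U2SURP knockdown, 7 of the 13 were higher and 1 lower, beside 23.0% and 21.5% of all genes (44.5% called in either direction). Compared with the CHERP knockdown, 7 were higher and 2 lower, beside 26.1% and 25.5% (51.6% in either direction). SF3B6, the subunit that touches the branch site, was 0.93 higher in log2 units than in the CHERP knockdown. Both of these contrasts use the same 3 RBM17 libraries.

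The promoter of SNRPA1 is shown because many promoters of the U2 group hold the same letters. RefSeq promoters (250 bases before to 50 after the gene start, GRCh38.p14) were matched for 11 of the 13 genes. The ETS site, searched as CCGGAAGT on both strands, was present in 7 of those 11, SF3A2 among them, and in 4.14% of all 35116 promoters. It was also in 18.8% of 405 zinc finger (ZNF) genes and 19.2% of 26 small ribosomal subunit genes. The median log2 changes of these 2 lists were 0.04 and -0.02. A link between the site and the changes was not tested. In the stretch at chr15:101295199-101295498, minus strand, capitals mark this match, which begins 114 bases before the start. A match is a description of letters, not of binding.
SNRPA1: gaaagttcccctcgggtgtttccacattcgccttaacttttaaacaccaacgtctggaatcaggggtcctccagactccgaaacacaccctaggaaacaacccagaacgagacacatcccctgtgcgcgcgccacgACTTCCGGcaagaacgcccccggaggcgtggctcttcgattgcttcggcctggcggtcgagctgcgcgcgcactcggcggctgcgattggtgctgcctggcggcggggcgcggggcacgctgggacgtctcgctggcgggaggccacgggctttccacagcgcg

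The U1 group went the other way. Of 10 U1 snRNP and LUC7-like members, 8 fell and 1 rose, with a median of -0.52. LUC7L3, a homologue of a yeast U1 protein that helps select 5' splice sites, had 604, 621 and 642 CPM in control and 313, 302 and 297 CPM in the knockdown (-1.03 ± 0.056, adjusted p = 1.11e-12). LUC7L and LUC7L2, its paralogues, fell (-0.87 and -0.70) in log2 units. PRPF39, RBM25, TIAL1 and TIA1, which are known to work with U1 at 5' splice sites, fell (-0.66, -0.52, -0.52 and -0.39). The structural U1 proteins differed among themselves. SNRPC rose from 71.8, 68.4 and 80.3 to 139, 164 and 172 CPM (1.11 ± 0.067, adjusted p = 4.08e-12), without overlap of the groups. SNRPA differed by -0.12 ± 0.053, adjusted p = 0.0566, and passed when protein-coding genes were fitted by themselves (-0.19), and SNRNP70 by -0.15 ± 0.055 (adjusted p = 0.0201), a call that was lost with DESeq2 size factors. Directly against the U2SURP knockdown 2 members were higher and 3 lower, and against the CHERP knockdown 2 and 3. SNRPC was higher than in both, by 0.56 and 0.69.

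**Figure D1:**
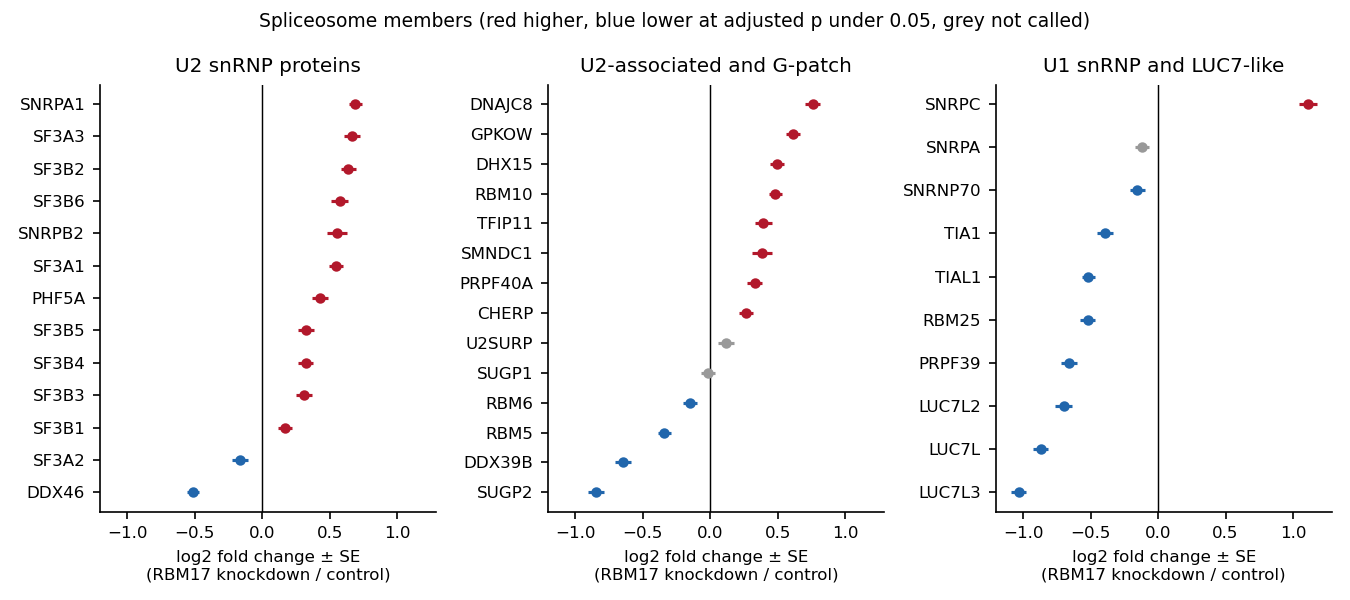
Log2 fold change ± SE (RBM17 knockdown over control) of each tested member of spliceosome gene groups; colours mark genes called higher, called lower or not called. U2 snRNP members lie mostly right of 0 and U1 and LUC7-like members mostly left of it, with SNRPC at 1.11 and LUC7L3 at -1.03.

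Proteins that bind U2 or share the G-patch of RBM17 were mixed, with 8 of 14 higher and 4 lower. Of protein-coding genes at 100 CPM or more 55.7% rose and 22.5% fell, so the share that rose was near theirs. DNAJC8, a J protein found with U2, rose by 0.76 ± 0.057 (adjusted p = 1.08e-10). SUGP2, a G-patch protein, fell from 350.4, 334 and 313 to 191, 181 and 183 CPM (-0.85 ± 0.06, adjusted p = 4.05e-11). Its relative SUGP1, looked up after the values were seen, differed by -0.01 ± 0.052, adjusted p = 0.846. DDX39B, the helicase UAP56 that acts with U2AF2, fell by 0.64. The UHM and branch site group, which counts RBM17, had 5 of 11 members higher and 3 lower. HTATSF1, which binds SF3B1 through its UHM, rose from 134, 138 and 157 to 197, 227 and 217 CPM. PUF60 and RBM23 rose by 0.42 and 0.44, and RBM39 fell by 0.40. SF1, which contacts the branch site before U2, rose by 0.45 ± 0.054 (adjusted p = 1.76e-07). U2AF2 did not pass (0.12 ± 0.056, adjusted p = 0.0668), but did with DESeq2 size factors (0.18). U2AF1 read 4.60, 13.3 and 4.65 CPM in the knockdown against 10.9, 8.38 and 12.3 in control (-0.49 ± 0.39, adjusted p = 0.32). Without knockdown library 2, the highest of the 3, its log2 change was -1.19 and passed. U2AF1 has a near-identical copy in the genome assembly, so its counts are uncertain.

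Among RNA-binding proteins outside the snRNPs, 19 of 23 hnRNP genes rose and 4 fell (median 0.45). HNRNPM, a splicing regulator, went from 249, 245 and 261 to 431, 520.1 and 509 CPM (0.95 ± 0.059, adjusted p = 6.96e-12). HNRNPA1 was among the 4 that fell (-0.40 ± 0.071, adjusted p = 3.90e-05), and it differed from the U2SURP and CHERP knockdowns by -0.78 and -1.01. Another of the 4 was HNRNPA1P48, named as a copy of HNRNPA1, and sharing of reads between them was not tested. SR proteins, which promote exon inclusion, had 6 of 17 members higher and 7 lower. That balance depended on the fit: 4 were higher and 10 lower with a minimum of 1 CPM, 5 and 10 with offsets for GC content and length, and 4 and 9 in protein-coding genes fitted by themselves. SRSF12 and TRA2B rose by 0.56 and 0.45, and SRSF5 and SRSF11 fell (-0.64 and -0.63). Kinases of SR proteins had 3 of 14 higher and 7 lower: SRPK1 and SRPK2 rose by 0.51 and 0.28, and CLK1, CLK4 and the muscle kinase SRPK3 fell (-0.89, -0.72 and -1.12). Exon junction and nonsense-mediated decay factors rose in 13 of 19 cases and fell in 2. UPF3B rose by 0.93 while its paralogue UPF3A fell by 0.29. Neuronal and tissue-restricted splicing regulators rose in 18 of 26 cases and fell in 5. The number that fell was 2 without control library 2, 3 without control library 3 and 3 without knockdown library 3. Among them NOVA2 rose from 2.56, 2.38 and 2.69 to 5.64, 6.06 and 6.24 CPM, and SRRM3, an activator of neuronal microexons, rose by 0.99 ± 0.083. The paralogue NOVA1 fell by 0.33.

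RPS6 (ENSG00000137154; chromosome 9, 19375715 to 19380254, minus strand), a protein of the small ribosomal subunit that S6 kinases phosphorylate, had the largest decrease among protein-coding genes at 5 CPM or more whose groups did not overlap. Control libraries gave 1302, 1262 and 1494 CPM and knockdown libraries 145, 134 and 143 CPM. RPS6 was thus 9.61-fold lower (-3.26 ± 0.069, adjusted p = 3.44e-20), a larger log2 decrease than that of RBM17. In the U2SURP and CHERP knockdowns RPS6 averaged 1772 and 1770.0 CPM. The next ribosomal protein gene by size of decrease was RPL22L1, a paralogue of RPL22 (-0.91 ± 0.07).

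Other ribosomal protein genes moved by less, and in both directions. In the small subunit 9 of 33 rose and 11 fell, and in the large subunit 9 of 53 rose and 16 fell. Their medians, -0.02 and -0.03, were near 0 and turned positive with DESeq2 size factors. RPL3, which lies near the peptidyl transferase centre, fell from 2547, 2401 and 2799 to 1429, 1533 and 1591 CPM (-0.77 ± 0.065, adjusted p = 7.32e-10). RPL13A and RPS25 fell (-0.57 and -0.50), whereas RPSA and RPS2 rose by 0.67 and 0.57. Against the other knockdowns the family lay lower: 26 of 33 small-subunit and 43 of 53 large-subunit genes were lower than in the U2SURP knockdown, and 25 and 45 were lower than in the CHERP knockdown. The medians of these differences were -0.43 and -0.38 against U2SURP, and -0.44 and -0.48 against CHERP. Many ribosomal protein genes have processed copies that could share reads, so single values are uncertain.

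Translation initiation factors rose in 36 of 55 cases and fell in 14. EIF4B, which stimulates the helicase eIF4A, fell from 1048 ± 67.7 to 568 ± 4.79 CPM (mean ± SD, n = 3) (-0.88 ± 0.056, adjusted p = 9.02e-12), and it averaged 1252 and 1477 CPM in the U2SURP and CHERP knockdowns. EIF3L and EIF3F, subunits of the scaffold eIF3, fell (-0.72 and -0.41) and were also lower than in each other knockdown. EIF4G2, which supports initiation without eIF4E, rose from 649, 692 and 740.2 to 1342, 1647 and 1596 CPM (1.14 ± 0.066, adjusted p = 2.72e-12). EIF4EBP1, the repressor of eIF4E, rose by 0.91 and EIF5A, an elongation factor despite its name, by 0.87.

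RNAs that host small nucleolar RNAs in their introns fell in 16 of 25 cases and rose in 4 (median -0.37). Their median member stood at 42.9 CPM. These shares were near those of long non-coding RNAs at 20 to 100 CPM, of which 66.7% fell and 20.5% rose. Of protein-coding genes at that level 22.6% fell and 52.8% rose. SNHG5 had 133, 135 and 158 CPM in control and 80.98, 79.3 and 81.1 CPM in the knockdown (-0.82 ± 0.06, adjusted p = 7.17e-11), and averaged 226 and 209 CPM in the U2SURP and CHERP knockdowns. EPB41L4A-AS1 had 56.1, 51.8 and 61.3 CPM in control and 35.1, 32.6 and 30.7 CPM in the knockdown (-0.78 ± 0.06), and averaged 80.6 and 80.4 CPM in the other knockdowns. Both hosts, like EIF4B, were below control here while the means of the other knockdowns were above it. The list as a whole did not separate in this way. Of its 25 members 12 were lower and 6 higher than in the U2SURP knockdown (median -0.13). Against the CHERP knockdown 11 were lower and 9 higher (median 0.0047). CWF19L1, a host that is also a protein-coding gene, rose by 0.69. Ribosomal protein mRNAs and several snoRNA hosts are known to begin with a 5' terminal oligopyrimidine tract; transcript starts were not measured.

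**Figure D2:**
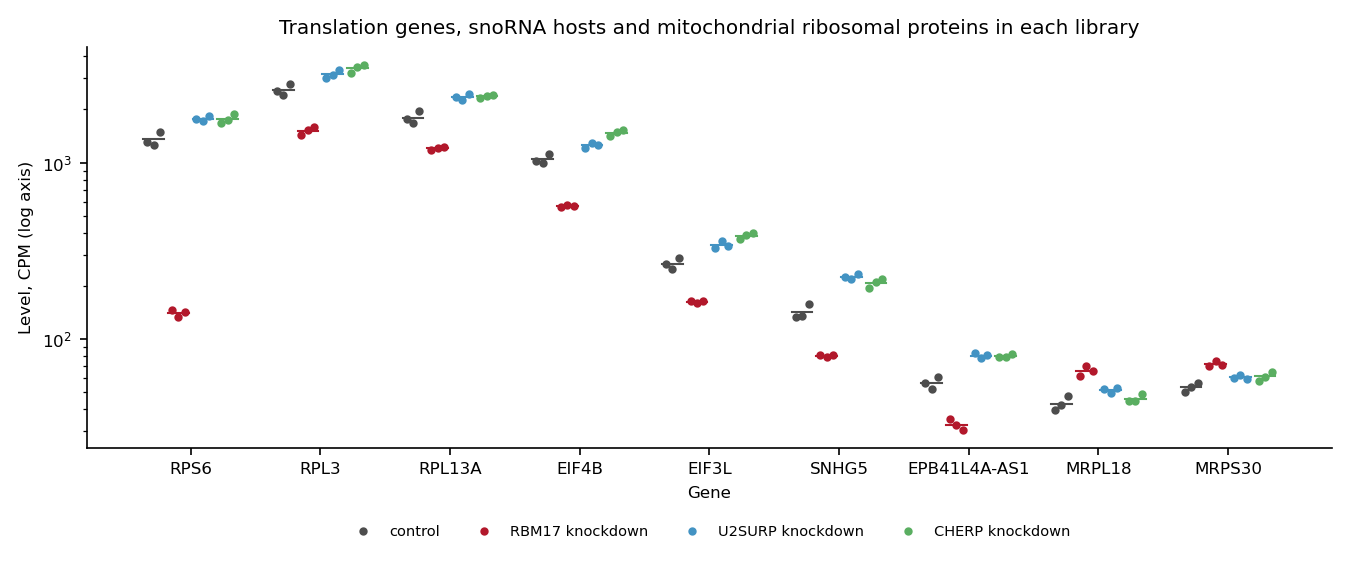
Level in CPM (log axis) of genes of translation, snoRNA hosting and mitochondrial ribosomes in the 4 groups; points are libraries and lines group means. RPS6 lies at 134 to 145 CPM in the RBM17 knockdown and at 1262 to 1494 CPM in control.

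Genes of synaptic vesicles and regulated secretion, best known from neurons, were among the largest increases. In the synaptic vesicle group 29 of 51 members rose and 11 fell (median 0.34). With a minimum of 1 CPM 25 of 46 rose and 13 fell, and the median was 0.17. RAB3C, a vesicle GTPase, gave 2.25, 2.52 and 2.55 CPM in control and 9.37, 9.68 and 9.89 CPM in the knockdown (1.98 ± 0.088, adjusted p = 6.58e-14). CPLX1, a complexin that binds the SNARE complex, rose from 1.38, 0.935 and 1.33 to 7.20, 9.05 and 8.12 CPM (2.74 ± 0.13, adjusted p = 1.45e-13). The groups were far apart for both, and the other knockdowns were low: RAB3C averaged 3.75 and 2.05 CPM there, and CPLX1 1.52 and 0.381 CPM. SCAMP5, AP3B2 and SYT14, of vesicle recycling, sorting and fusion, rose by 1.44, 1.97 and 1.72. SNAP25, the plasma membrane SNARE of neurons, named here after its values were seen, rose from 0.277, 0.442 and 0.333 to 2.27, 2.62 and 2.79 CPM. The group was not uniform, since the vesicle SNAREs VAMP2 and VAMP1 fell (-0.49 and -0.90). Directly against the U2SURP knockdown 34 members were higher and 7 lower, and against the CHERP knockdown 36 and 6.

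CHGA and CHGB, granins that pack hormone granules, and SCG3, a granin relative, rose from low levels. CHGA had 0.651, 0.456 and 0.601 CPM in control and 5.33, 6.76 and 6.61 CPM in the knockdown, 10.9-fold higher without overlap (3.45 ± 0.18, adjusted p = 6.36e-12). CHGB and SCG3 rose by 3.22 and 3.00 in log2 units. In all, 8 of 16 granin and prohormone processing genes rose and 2 fell, and the levels summed over the list were 421 to 469 CPM in control and 419.8 to 442 CPM in the knockdown. Those that fell were PAM, which amidates peptides (-0.65 ± 0.057), and SCG5, a chaperone of the convertase PCSK2 (-1.72 ± 0.19). Compared directly, 14 members were higher than in the U2SURP and 12 higher than in the CHERP knockdown. The promoter of CHGA is shown because a cyclic AMP response element is a known feature of it. Searched as TGACGTCA on both strands, this element was in 3 of 11 matched promoters of the group and in 1.85% of all promoters. The other matches were in PCSK1, a convertase that rose by 1.11 (not called without knockdown library 2 or 3 or control library 2 or 3), and in VGF, a granin-like peptide precursor that did not pass (-0.19 ± 0.19, adjusted p = 0.427). At chr14:92922900-92923199, plus strand, capitals mark the match, which begins 54 bases before the start.
CHGA: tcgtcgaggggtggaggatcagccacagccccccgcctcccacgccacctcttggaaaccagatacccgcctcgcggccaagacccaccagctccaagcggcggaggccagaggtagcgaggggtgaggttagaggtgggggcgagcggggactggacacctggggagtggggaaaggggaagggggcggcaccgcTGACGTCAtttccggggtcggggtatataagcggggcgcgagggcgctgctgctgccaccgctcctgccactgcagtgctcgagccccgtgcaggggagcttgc

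Ion channel genes rose and fell side by side. Potassium and HCN channels had 12 of 49 members higher and 11 lower. KCND1 (Kv4.1) fell from 8.31, 8.51 and 7.21 to 3.12, 3.15 and 3.35 CPM, and KCNAB3, a Kv beta subunit, fell by 1.59. KCND1 was also below the U2SURP and CHERP knockdowns (-1.25 and -1.43). Calcium and sodium channels were mostly lower, with 18 of 28 falling and 4 rising (median -0.34). CACNG8, an auxiliary subunit that also binds AMPA receptors, fell by 1.08 and the Cav1.3 gene CACNA1D fell by 0.69. The 4 that rose were CACNA1B, the presynaptic Cav2.2 (7.79, 7.46 and 6.83 to 22.3, 23.9 and 23.9 CPM), SCN3B (1.37), SCN8A (0.40) and CACNB4 (0.32). Directly, 13 members were higher and 3 lower than in the U2SURP knockdown, and 16 higher and 8 lower than in the CHERP knockdown.

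Cytoskeletal genes of neurons rose in 21 of 33 cases and fell in 5 (median 0.46). INA, the intermediate filament alpha-internexin, rose from 10.3, 11.4 and 11.9 to 22.4, 23.4 and 22.9 CPM. MAPT (tau) and the motor KIF5A fell (-0.27 and -0.54). Neuronal adhesion genes were split, 8 of 30 higher and 11 lower: NFASC and L1CAM rose by 1.13 and 1.09, while the neuroligins NLGN3 and NLGN2 fell (-1.35 and -0.60). The repressor REST, which keeps many neuronal genes off in other cells, differed by -0.08 ± 0.057, adjusted p = 0.259, and passed when protein-coding genes were fitted by themselves (-0.15); it was looked up after the values were seen. Of 18 genes of the REST corepressor complex 10 rose and 2 fell. The share that rose was near the 55.7% of protein-coding genes at 100 CPM or more. RCOR2, a corepressor, rose from 6.16, 5.80 and 5.75 to 12.01, 12.98 and 13.8 CPM.

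**Figure D3:**
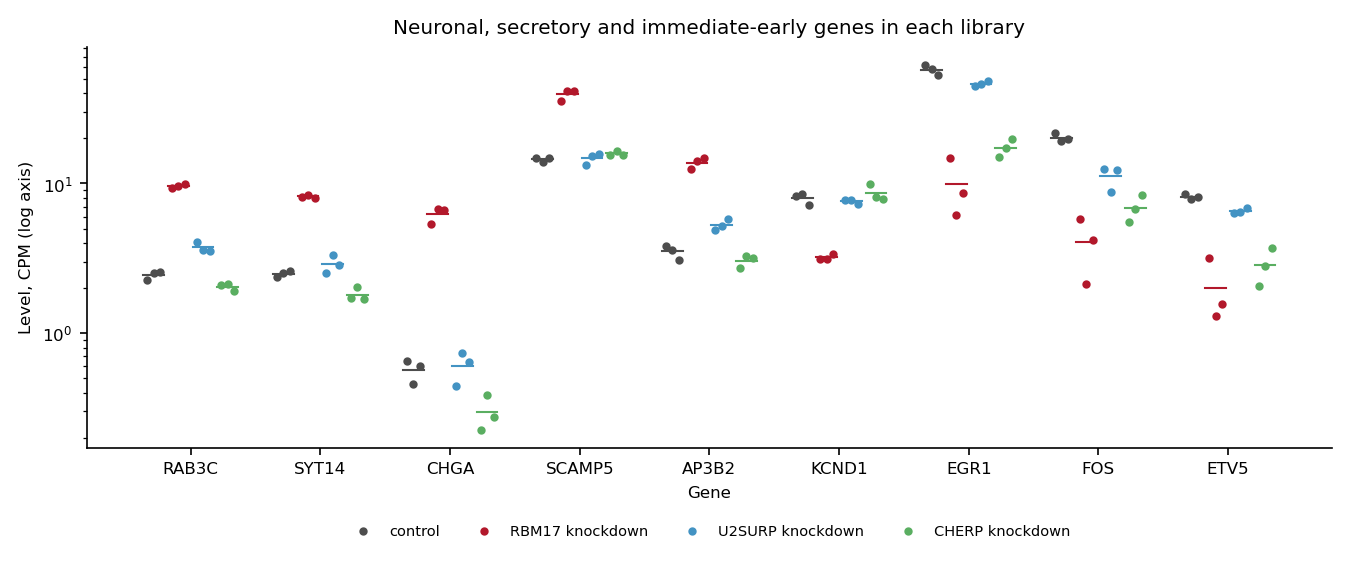
Level in CPM (log axis) of neuronal, secretory and immediate-early genes in the 4 groups; points are libraries and lines group means. CHGA lies at 5.33 to 6.76 CPM in the RBM17 knockdown and 0.456 to 0.651 CPM in control, and EGR1 at 6.20 to 14.7 and 53.2 to 61.7 CPM.

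Immediate-early genes, which serum and growth factors switch on within minutes, many through SRF and its ETS partners, were mostly lower. Of 32 members 21 fell and 6 rose (median -0.48). EGR1 had 61.7, 57.8 and 53.2 CPM in control and 14.7, 6.20 and 8.67 CPM in the knockdown (-2.54 ± 0.28, adjusted p = 6.01e-05). FOS had 21.6, 19.4 and 19.8 CPM in control and 5.78, 2.14 and 4.20 CPM in the knockdown. ARC, FOSB and GADD45B fell (-2.38, -1.84 and -1.70). The groups did not overlap for these 5 genes, and knockdown library 1 was the highest of the 3 in each. SRF itself rose by 0.53 ± 0.048, and so did KLF10 (0.76) and ATF3 (0.34). EGR1 averaged 46.5 CPM in the U2SURP and 17.3 CPM in the CHERP knockdown, and it was lower than both (adjusted p = 1.96e-04 and 0.0356, edgeR). The list as a whole was not lower than in both. Of its 32 members 14 were lower and 6 higher than in the U2SURP knockdown (median -0.20). Against the CHERP knockdown 7 were lower and 12 higher (median -0.07).

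Readouts of ERK signalling were split, with 9 of 19 lower and 5 higher. The ETS factors ETV5 and ETV4 and the feedback inhibitor SPRY4 fell (-2.02, -1.27 and -2.23), whereas SPRY1 and CCND1 rose by 0.62 and 0.70. Without knockdown library 1, the log2 change of SPRY4 was -2.97. CIC, a repressor of ETV4 and ETV5 that ERK relieves, fell by 0.56. The EGR1 promoter is shown for its SRF sites. The CArG box, the sequence SRF binds, was in 3 of 22 matched immediate-early promoters and in 1.29% of all promoters. The other matches were in EGR2, which fell by 1.11, and in SRF. At chr5:138465229-138465528, plus strand, capitals mark 2 matches, which begin 105 and 83 bases before the start.
EGR1: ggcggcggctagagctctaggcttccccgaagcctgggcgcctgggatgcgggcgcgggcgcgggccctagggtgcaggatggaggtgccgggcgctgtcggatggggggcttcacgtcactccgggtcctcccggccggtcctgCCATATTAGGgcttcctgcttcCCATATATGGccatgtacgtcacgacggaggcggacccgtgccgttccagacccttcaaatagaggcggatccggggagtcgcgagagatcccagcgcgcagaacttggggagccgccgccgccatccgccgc

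Most genes of cytosolic chaperones, the chaperonin CCT and the proteasome rose. Of 30 heat shock and cytosolic chaperone genes 25 rose and 2 fell (median 0.57). HSPH1 (HSP110) rose from 91.95, 100.5 and 106 to 202, 240.5 and 228 CPM (1.17 ± 0.065, adjusted p = 1.35e-12). STIP1, which links HSP70 to HSP90, DNAJA1, a J protein of HSP70, and HSPA9, the mitochondrial HSP70, rose by 1.05, 1.05 and 1.06. Control and knockdown libraries did not overlap for these 4 genes. HSPA8, the constitutive HSP70, was an exception: its change of -0.18 ± 0.072 (adjusted p = 0.0372) was not called with DESeq2 size factors. All 8 subunits of the cytosolic chaperonin CCT rose, by 0.64 to 0.92. All 8 were also higher than in the U2SURP knockdown, and 5 were higher than in the CHERP knockdown. CCT5 had 292, 292 and 328 CPM in control and 522, 611 and 598 CPM in the knockdown. Of 37 proteasome subunits 31 rose and 3 fell (median 0.70), and directly 30 were higher than in the U2SURP and 26 than in the CHERP knockdown. PSMD8 and PSMD1, of the regulatory cap, rose by 0.97 and 0.94, and PSMB6, a catalytic beta subunit, by 0.92. Among the 3 that fell was PSMB10, an immunoproteasome subunit at 0.828 to 1.05 CPM in control (-0.99 ± 0.16), while PSMB9, another immunoproteasome subunit, named after its values were seen, rose by 1.70.

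Promoters of 3 chaperone genes are set beside each other because the heat shock element was frequent in this group and the genes did not all move alike. The element, searched on both strands as GAA, TTC and GAA with 2 bases between neighbours, was in 7 of 27 matched promoters of the group and in 0.49% of all promoters. Of the 7, DNAJA1, HSP90AA1, HSPD1, DNAJB6, CHORDC1 and HSP90AB1 rose, by 0.50 to 1.12, and HSPA8 had the small decrease; these genes were picked by their promoters. Capitals mark the matches. DNAJA1 (chr9:33025023-33025322, plus strand) has 1 match, just after the start, and an ETS site elsewhere. CHORDC1, a cochaperone of HSP90 that rose from 60.97, 68.9 and 71.8 to 92.04, 106 and 99.95 CPM, has 3 overlapping matches (chr11:90223000-90223299, minus strand). HSPA8 has 2 matches apart from each other (chr11:123062087-123062386, minus strand).
DNAJA1: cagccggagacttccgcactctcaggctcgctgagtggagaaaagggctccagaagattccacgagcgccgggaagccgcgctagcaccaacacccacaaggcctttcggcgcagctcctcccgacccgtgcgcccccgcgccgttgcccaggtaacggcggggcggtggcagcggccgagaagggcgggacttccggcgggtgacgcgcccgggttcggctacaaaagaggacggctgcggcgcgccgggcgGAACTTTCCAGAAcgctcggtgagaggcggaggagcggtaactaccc
CHORDC1: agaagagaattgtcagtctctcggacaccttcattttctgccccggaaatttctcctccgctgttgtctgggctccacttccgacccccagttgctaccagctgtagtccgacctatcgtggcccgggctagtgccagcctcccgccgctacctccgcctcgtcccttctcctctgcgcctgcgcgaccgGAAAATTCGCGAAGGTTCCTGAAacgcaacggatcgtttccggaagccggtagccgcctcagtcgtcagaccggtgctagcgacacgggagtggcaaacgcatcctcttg
HSPA8: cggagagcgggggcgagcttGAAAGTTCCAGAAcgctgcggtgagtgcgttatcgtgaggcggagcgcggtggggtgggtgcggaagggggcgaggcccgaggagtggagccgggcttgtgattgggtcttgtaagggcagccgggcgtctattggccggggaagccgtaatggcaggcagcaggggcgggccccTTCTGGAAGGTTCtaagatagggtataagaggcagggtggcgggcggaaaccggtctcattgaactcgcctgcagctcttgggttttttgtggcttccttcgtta

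Cytosolic aminoacyl-tRNA synthetases, which charge tRNAs, rose in 19 of 20 cases (median 0.60). WARS had 94.7, 92.6 and 97.7 CPM in control and 194, 191 and 193 CPM in the knockdown (1.02 ± 0.05, adjusted p = 2.42e-13), and MARS rose by 0.84. QARS was the exception (-0.27 ± 0.049, adjusted p = 4.96e-05). Genes tied to ATF4, the transcription factor of the integrated stress response, rose in 16 of 24 cases and fell in 3. Of protein-coding genes at 100 CPM or more 55.7% rose and 22.5% fell. PSPH, of serine synthesis, and SESN2, an inhibitor of mTORC1, rose by 0.91 and 0.89, whereas the cystine transporter SLC7A11 fell from 201, 201 and 229.6 to 144, 126 and 116 CPM. Glycolytic genes rose in 15 of 20 cases and fell in 3 (median 0.54). ENO1 rose from 1025, 1020.0 and 1094 to 1779, 2186 and 2281 CPM, and TPI1, PGAM1 and PKM rose by 0.95, 0.85 and 0.84. The enolase paralogues ENO3, of muscle, and ENO2, of neurons, fell (-1.18 and -0.35). Directly, 15 of the 20 were higher than in the U2SURP knockdown and 15 higher than in the CHERP knockdown.

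Messenger RNAs of the mitochondrial genome fell, while lists of nuclear genes for this organelle differed among themselves. All 13 mRNAs encoded in mitochondrial DNA fell (median -0.71, range -1.05 to -0.38). MT-CYB, of complex III, had 4912, 4479 and 5425 CPM in control and 2381, 2499 and 2279 CPM in the knockdown. Together the mitochondrially encoded genes took 8.3% ± 0.41 (SD, n = 3) of counts in control and 4.86% ± 0.195 (SD, n = 3) in the knockdown, without overlap (exact permutation test, two-sided, p = 0.1, the smallest that 3 against 3 allows). Mitochondrial ribosomal proteins rose in 63 of 78 cases and fell in 4 (median 0.52), and MRPL21 rose from 37.8, 37.7 and 41.6 to 78.2, 91.2 and 93.2 CPM. Nuclear complex I subunits rose in 27 of 38 cases and fell in 3, and those of complexes III to V rose in 36 of 43 and fell in 2. For comparison, 52.8% of protein-coding genes at 20 to 100 CPM rose. Among those at 5 CPM or more with under 2000 nt of exonic sequence 68.3% rose. CYC1, the cytochrome c1 that works beside MT-CYB in complex III, rose from 112 ± 7.02 to 215 ± 12.7 CPM (mean ± SD, n = 3). Factors of mitochondrial DNA copying and expression rose in 17 of 19 cases, among them SSBP1 (1.06), TACO1 (0.85) and TFB2M (0.78). The 2 that fell were POLG2 (-0.45) and POLG (-0.18), the subunits of the DNA polymerase, and the call for POLG was lost with DESeq2 size factors. SLC25 carriers of the inner membrane, in contrast, rose in 16 of 45 cases and fell in 11, and the sign of their median (0.04) depended on the fit.

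Against the other knockdowns both sides of the split stood differently. Of the 13 mitochondrially encoded mRNAs 1 was higher and 2 were lower than in the U2SURP knockdown, and 9 were higher than in the CHERP knockdown. MT-CYB averaged 3185 and 2149 CPM there. Mitochondrial ribosomal proteins were higher in 62 of 78 cases than in the U2SURP and in 61 than in the CHERP knockdown.

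**Figure D4:**
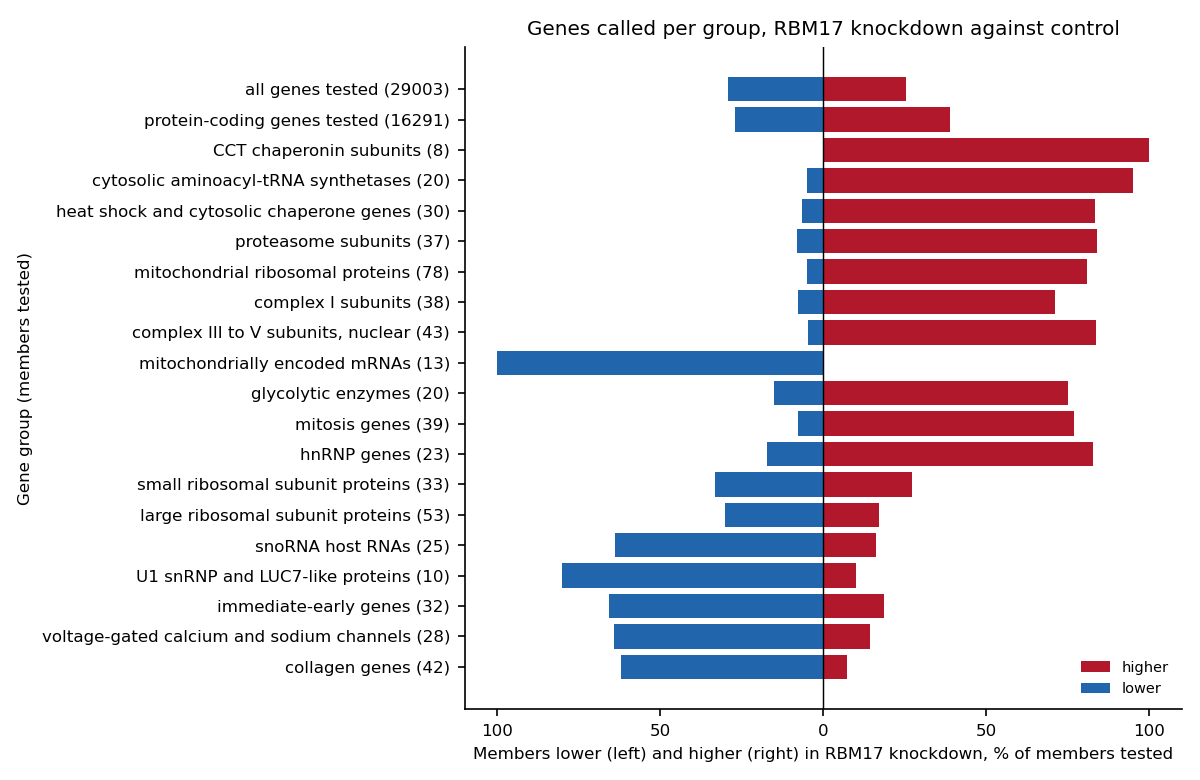
Share of tested members called higher and lower in RBM17 knockdown against control (x axis, %), per gene group, with the number tested in brackets. All genes stand at 25.4% and 29.3% for comparison, and protein-coding genes at 38.7% and 27.2%. Protein-coding genes at 100 CPM or more, not drawn, stand at 55.7% and 22.5%.

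Among genes of many introns, the share that fell was larger where more of the introns were short; these shares are a description, with no test. Introns were taken from a representative transcript per gene, and those under 100 nt were counted as short. Among protein-coding genes at 5 CPM or more with at least 21 introns, 30.2% of the 660 genes without a short intron fell. The share was 35.4% of 517 genes with 1 to 2 short introns, 42.7% of 171 genes with 3 to 5, and 63.8% of 116 genes with 6 or more. From the first to the last of these classes the share that rose went from 41.1% to 17.2%, and the median log2 change from 0.06 to -0.28. The sign of the median in the class without a short intron depended on the fit: it was -0.04 with a minimum of 1 CPM and -0.01 in protein-coding genes fitted by themselves, where 41.8% and 39.2% of the class fell. In the top class these medians were -0.37 and -0.35, with 70.7% and 69.8% lower. Genes with 11 to 20 introns showed a smaller gradient, from 24.2% to 39.2% falling. Short introns come with GC-rich genes, since the median exonic GC was 46.0% in the class without and 61.5% in the class with 6 or more. Within genes of at least 55% GC the shares that fell were 40.9%, 52.9%, 56.4% and 63.9% over the 4 classes. With offsets for GC content and length in the fit, an alternative chosen after seeing the data, 60.3% of the top class and 32.6% of the class without fell.

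The class of 6 or more short introns also fell against control in the other knockdowns, in 57.8% of genes for U2SURP and 73.3% for CHERP, with the same control libraries in each. In the direct contrasts 48.3% of it was lower than in the U2SURP knockdown and 24.1% lower than in the CHERP knockdown, beside 25.5% and 22.0% of the class without short introns. Changes were small, and 2 genes of the class passed a test against a 2-fold minimum. COL7A1, the collagen of anchoring fibrils, has 42 of 117 introns short and fell from 35.1, 32.2 and 28.5 to 11.9, 11.6 and 11.5 CPM (-1.45 ± 0.068, adjusted p = 1.14e-13). MYO15B, an unconventional myosin gene with 11 of 62 short, fell from 10.5, 9.97 and 8.11 to 2.86, 2.49 and 2.71 CPM. COL7A1 was also below the U2SURP and CHERP knockdowns (-1.22 and -1.09). Counter-examples were CARMIL2, a regulator of actin capping with 12 of 37 short, which rose by 1.47 ± 0.097, VARS (11 of 29, 0.81 higher) and RBM10 (6 of 23, 0.48 higher). The counts are per gene, so retained introns were not measured.

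**Figure D5:**
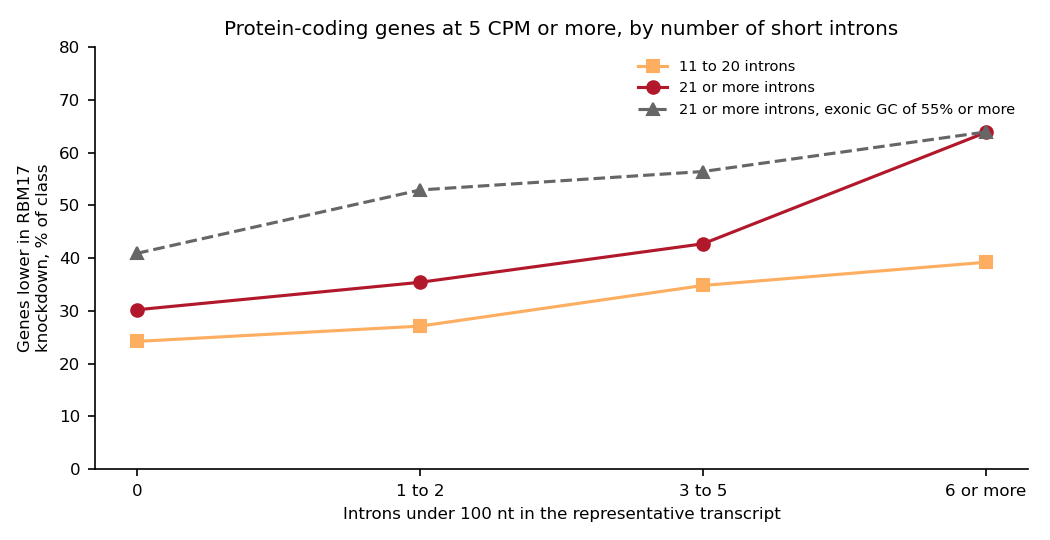
Share of protein-coding genes at 5 CPM or more called lower in RBM17 knockdown (y axis, % of the class) by the number of introns under 100 nt (x axis). The share ends at 63.8% for genes with 21 or more introns and at 63.9% for those of them with a GC of 55% or more.

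Collagen genes, whose triple helix is encoded by long series of small exons, fell in 26 of 42 cases and rose in 3 (median -0.60). COL6A1 fell from 129.7, 117 and 119 to 52.2, 54.7 and 53.3 CPM, and COL4A2, of basement membranes, from 257, 233 and 241 to 116, 126 and 126 CPM. COL12A1 was an exception and rose by 0.88 ± 0.094 (adjusted p = 3.10e-08). Against the U2SURP knockdown 17 collagens were lower and 8 higher, and against the CHERP knockdown 11 were lower and 19 higher.

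Among genes at 5 CPM or more, the direction of change also went with exonic length, and it differed between protein-coding and long non-coding genes. Of protein-coding genes at that level, 68.3% of those with under 2000 nt of exonic sequence rose and 11.8% fell, whereas at 12000 nt or more 35.3% rose and 38.0% fell. The classes between declined in steps (58.9%, 51.9% and 45.4% rising in the first 3). Without the minimum level the share that rose did not go with length: it was 32.6% of the shortest class, 41.9% of the third class by length, 36.5% of the class next to the longest, and 338 of 1023 genes, near that of the shortest class, at 12000 nt or more. The share that fell still went from 23.3% to 37.6%. Offsets for GC content and length gave end classes of 67.7% and 41.9% rising. Long non-coding RNAs fell in 35.7% of 6388 cases and rose in 7.19%. The share that fell was above that of protein-coding genes in each of 6 bins of level, from 19.9% against 18.3% under 0.2 CPM, through 54.6% against 30.4% at 5 to 20 CPM, to 66.7% against 22.6% at 20 to 100 CPM. Their share of counts was 2.8% ± 0.385 (SD, n = 3) in control and 1.66% ± 0.0762 (SD, n = 3) in the knockdown (exact permutation test, two-sided, p = 0.1, the smallest possible here).

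AC015813.1 (chromosome 17, 57989039 to 57994850, minus strand) had the largest fall of a long non-coding RNA at 5 CPM or more, from 72.96, 70.3 and 62.3 to 8.75, 7.17 and 7.94 CPM (-3.11 ± 0.082, adjusted p = 7.81e-18). It averaged 32.5 and 19.8 CPM in the U2SURP and CHERP knockdowns. LINC02367 separated the knockdowns, with 10.9 to 13.9 CPM in control, 3.33, 3.50 and 3.96 CPM here, and means of 14.0 and 14.9 CPM with U2SURP and CHERP siRNA. Of 15 abundant long non-coding RNAs 12 fell. NEAT1, the scaffold of paraspeckles, and MALAT1, a resident of nuclear speckles, fell (-1.13 and -0.87). NEAT1 averaged 64.8 and 57.6 CPM in the other knockdowns against 63.7 to 64.7 CPM in control and 26.01 to 31.7 CPM here. Increases were smaller, the largest being AC091182.1 (1.00 ± 0.069). ZNF503-AS2 rose by 0.84 and was 1.85 and 1.16 above the U2SURP and CHERP knockdowns. The strand setting of the counting was not given, so reads of ZNF503-AS2 and of ZNF503 on the other strand cannot be told apart. The same holds for other genes named here that overlap one on the other strand, such as RPS6 (with AL391834.2), EIF4G2 (with CTR9), EPB41L4A-AS1 (with EPB41L4A) and PAQR6 (with BGLAP).

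Other large changes fell outside these groups. ODC1, the rate-limiting enzyme of polyamine synthesis, rose from 126, 129 and 147 to 277, 389.8 and 384 CPM (1.39 ± 0.14, adjusted p = 6.69e-06), and averaged 264 and 239.7 CPM in the other knockdowns. C8orf33 rose from 83.6, 82.4 and 89.2 to 206, 266 and 258 CPM. GNAO1, a G protein alpha subunit abundant in neurons, rose by 1.41. ALDH8A1, an aldehyde dehydrogenase, fell from 14.4, 13.4 and 11.3 to 2.63, 2.11 and 2.86 CPM, and averaged 3.29 and 1.31 CPM in the U2SURP and CHERP knockdowns. PAQR6, of the membrane progestin receptor family, fell by 2.11 ± 0.09 and averaged 6.92 and 7.56 CPM there. RSRP1, an arginine and serine rich protein, fell by 1.63, and THBS3, a thrombospondin of the matrix, fell by 1.58.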

How the data were processed

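RNA from 12 libraries of HEK293 cells was sequenced with a stranded mRNA kit, per the labels' protocols. The deposited values are raw counts of reads per Ensembl gene. HISAT2 2.0.5, HTSeq and SAMtools with GRCh38 are named per the submitters' processing notes. Release of the annotation and strandedness of the counting were not given in the sources. Of 60554 gene IDs, 56996 were named through GENCODE 29 (gene models, coordinates and introns), and 3558 were not.

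Counts of all 12 libraries in 4 groups were fitted with edgeR 4.0.16 (R 4.3.3; filterByExpr, TMM scaling, robust quasi-likelihood), which left 29003 genes. Calls are at a Benjamini-Hochberg adjusted p under 0.05. CPM are counts per 1000000 counts of the TMM-scaled library. Gene lists are described by counts and medians. The lists and the comparison were chosen with earlier results of these data known. Named genes are RBM17, U2SURP and CHERP, then the 15 largest increases and decreases of protein-coding genes and 6 of long non-coding RNAs (called, mean of at least 5 CPM over the 6 libraries, groups not overlapping). The 5 largest per direction that also differed from both other knockdowns, and per list the 4 called members per direction with the smallest p and its defining members, were added; in lists of up to 13 any member. Exceptions are marked as named after their values were seen, and some genes the rule names are not reported here.

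The common biological coefficient of variation was 0.0866 and the median SE of a log2 change 0.136. Libraries of 1 group differed by more than sampling noise (chi-square per gene of 12.6 to 51.7). Each was counted as 1 replicate, but this spread does not show that they are separate cultures. On simulated counts of 26902 genes for RBM17 knockdown against control, 83.6%, 98.5% and 100% of genes changed by 0.5, 1 and 2 log2 units were recovered, with 19 false calls. Only 67, 67 and 66 genes were changed there, at 1 CPM or more and with random sign. In the data 54.7% of genes were called. The simulation therefore cannot give the false calls, the effect of scaling or the recovery at lower levels in these data. Alternatives were DESeq2 1.42.0 and its size factors, other filters, a fit of 2 groups, leaving out libraries, protein-coding genes alone and a minimum change of 2-fold. Offsets for GC content and length, and the joint removal of 2 libraries, were chosen after seeing the data. Promoter sequences are from RefSeq (GRCh38.p14). In a group a gene counted once if any of its promoters held the site, whereas the share of all promoters is per promoter.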

Additional observations from a re-analysis of the deposited data

How the results depend on the processing

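Counts of genes called against control lay within 1.5 times the 15858 of the first fit under every alternative but the test against a 2-fold minimum, which called 534 (108 higher and 426 lower). They were 15678 with DESeq2 size factors, 15623 with the DESeq2 Wald test, 15146 with 2 groups in the fit, 12079 with a minimum of 1 CPM, 11018 among protein-coding genes alone, and 14295 to 15585 when each library was left out in turn. The share of called genes that rose was 46.5%, and with DESeq2 size factors 51.7%, where the median of all genes moved from -0.10 to -0.04. The 2-fold minimum left 404 genes against the U2SURP knockdown (12899 without it) and 908 against the CHERP knockdown (14964), and leaving out libraries gave 11088 to 12628 and 13342 to 14629. It left 2 lower genes with 6 or more short introns, 3 lower with no short intron, 3 higher of under 2000 nt, 3 higher of 12000 nt or more, 136 lower long non-coding RNAs and 4 of these at 20 to 100 CPM. A minimum of 1 CPM left 1025 lower of 1575 long non-coding RNAs tested, 65.1% against 35.7% of 6388 without it. With that minimum 26 large ribosomal subunit genes, 8 DNA replication genes and 6 mitosis genes were lower, against 16, 5 and 3. Offsets for GC content and length gave 28 large subunit, 9 replication and 8 mitochondrial ribosomal genes lower, the last against 4, and 7 hypoxia genes, against 4, were lower in a fit with protein-coding genes by themselves. The median of potassium and HCN channels was -0.0729 with the 1 CPM minimum. The median of SLC25 carriers was -0.0516 with it, -0.0314 with these offsets and -0.0275 among protein-coding genes alone. The medians of small and large ribosomal subunit genes turned positive with the DESeq2 Wald test (0.0365 and 0.026), DESeq2 size factors (0.0339 and 0.0234) and 2 groups in the fit (0.0265 and 0.0145), and for the small subunit without both control library 3 and knockdown library 2 (0.0156). Over single libraries left out they ran from -0.0771 to 0.0326 and from -0.0799 to 0.0221, positive without knockdown library 1 or control library 3; the cause was not tested. SUGP1 changed sign with the DESeq2 Wald test (0.0439), DESeq2 size factors (0.0412) and 2 groups in the fit (0.0335), and ran from -0.0384 to 0.0172 over libraries left out. Of 178 named genes, 136 were no longer called against a 2-fold minimum. Among calls of small size, HSPA8 was lost without knockdown library 1 (-0.10) or control library 3 (-0.11), SF3A2 without control library 1 (-0.10) or knockdown libraries 1 (-0.13) or 2 (-0.15), SNRNP70 without control library 1 (-0.11) or knockdown libraries 2 (-0.15) or 3 (-0.15), and SF3B1 without knockdown library 2 (0.14). PCSK1 was lost without knockdown libraries 2 (0.85) or 3 (1.10), or control libraries 2 (0.88) or 3 (1.14). No paired analysis was possible because the replicate numbers used here were given in accession order and pair no samples. Deviations of libraries with the same replicate number correlated at -0.0409, -0.166 and -0.207.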

Other observations

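Cell division genes were mostly higher in the RBM17 knockdown. Of all genes 25.4% were higher and 29.3% lower, and of protein-coding genes at 100 CPM or more 55.7% and 22.5%. Mitosis genes rose in 30 of 39 cases and fell in 3 (median 0.40), and DNA replication genes rose in 22 of 36 and fell in 5 (median 0.37). The share of replication genes that rose was near that of protein-coding genes at 100 CPM or more. CDC20, an activator of the anaphase-promoting complex, had 94.3, 94.8 and 99.3 CPM in control and 163, 185 and 185 CPM in the knockdown (0.89 ± 0.052). MCM2, of the replicative helicase, had 325, 315 and 344 and 481, 541 and 538 CPM. The libraries of the groups did not overlap for either gene. MKI67, which coats mitotic chromosomes, and ORC6, of the origin recognition complex, fell (-0.64 and -0.84) instead.

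Chaperones of the endoplasmic reticulum and other genes of the unfolded protein response rose in 4 of 22 cases and fell in 8. HSP90B1 (GRP94) fell from 1217, 1194 and 1380.0 to 603, 702 and 673 CPM (-0.94 ± 0.066), and EDEM1, of ER-associated degradation, fell by 0.35. Cholesterol synthesis genes fell in 12 of 23 cases and rose in 4, with LSS and SQLE lower (-0.65 and -0.43) and FDFT1 higher by 0.55. Interferon response genes fell in 9 of 22 cases and rose in 2, and ISG15 went from 5.44, 4.96 and 4.56 to 2.93, 3.13 and 3.25 CPM. Their median member stood at 1.35 CPM. The share that fell was near the 40.4% of protein-coding genes at 1 to 5 CPM, of which 27.0% rose. Hypoxia response genes rose in 8 of 16 cases, HIF1A among them (0.65), and fell in 4. The share that rose was near the 52.8% of protein-coding genes at 20 to 100 CPM. Clustered histone genes fell in 13 of 45 cases and rose in 5, and their median member stood at 0.312 CPM, near the floor. The share that fell was near the 29.3% of all genes. Among protein-coding genes at 0.2 to 1 CPM 39.6% fell and 15.1% rose.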
